A study of Mus musculus with 36 samples.

Results

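The comparison set E16.5M PGCs exposed to intrauterine hyperglycemia (IUHG) against E16.5M PGCs of control pregnancies, by RNA-seq of 3 libraries per group. E16.5M PGCs are primordial germ cells sorted from male mouse gonads on day E16.5 of embryonic development. Of 57126 gene IDs in the deposited tables, 20945 had a mean of at least 1 TPM (transcript abundance corrected for transcript length and library depth) in either group and were tested. The 6 libraries are part of a series of 36 libraries of PGCs and gonads taken between E12.5 and E16.5.

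All 6 libraries came from fetuses labelled WT that carried the *Oct4-EGFP* transgene, in which a *Pou5f1* promoter marks germ cells, and each library was made from EGFP-positive cells pooled from several fetuses. IUHG pregnancies were induced with streptozotocin, a toxin of pancreatic beta cells, at 120 mg/kg on E3.5, and were kept where maternal glucose was above 14 mM on E6.5. Control dams received no streptozotocin, so the drug and the raised glucose cannot be told apart. The libraries are called control 1 to 3 and IUHG 1 to 3 after the replicate numbers of the labels, which do not say whether numbered libraries came from separate litters, and the p-values therefore measure only the spread between these pools.

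Male germ cells at this stage are prospermatogonia. They have left the pluripotency program, have stopped dividing inside the testis cords, do not enter meiosis before birth, and rebuild DNA methylation with the help of DNMT3A, DNMT3L and PIWI-bound small RNAs. Sertoli cells surround them and Leydig cells of the interstitium make androgen, so the RNA of both can enter a sorted germ cell sample.

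The libraries held 3.95 to 5.13 gigabases of aligned sequence, and 19709 to 20126 genes reached 1 TPM in each. The 8 germ cell markers summed to between 4367 and 4835 TPM in the control libraries and between 4652 and 4794 TPM in the IUHG libraries, and each of them was detected in every library. *Xist* was below 1 TPM in all 6 libraries, and the Y-linked gene *Eif2s3y* was at 90.4, 74.3 and 69.8 TPM in the control libraries and 105, 112 and 107 TPM in the IUHG libraries. The median log2 fold change over all tested genes was 0.04. Medians fell with the GC content of the transcript, from 0.20 in the fifth of genes with the lowest GC to -0.13 in the fifth with the highest, and values corrected for GC content and transcript length are therefore given beside calls of named genes that the correction ends, for genes matched to a transcript.

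Some metallothionein and immediate-early genes were lower under IUHG, as described further on, and promoters of members of these families are shown here. Metallothioneins bind zinc and copper and are switched on by MTF1 through metal response elements (MREs), whose core was searched as TGCACNC or TGCGCNC on both strands. Each window, from RefSeq on GRCm38.p6, runs from 250 bases before to 50 bases after the gene's start, and capitals mark the matches. *Mt1* (chr8:94178839-94179138, plus strand) held 3 matches, *Mt2* (chr8:94172368-94172667, plus strand) held 4, and *Mt3* (chr8:94152357-94152656, plus strand) and *Mt4* (chr8:94136954-94137253, plus strand) held 1 each. Of 32851 promoter windows of this length, 25.7% held at least 1 match and 1.97% held at least 3.
Mt1: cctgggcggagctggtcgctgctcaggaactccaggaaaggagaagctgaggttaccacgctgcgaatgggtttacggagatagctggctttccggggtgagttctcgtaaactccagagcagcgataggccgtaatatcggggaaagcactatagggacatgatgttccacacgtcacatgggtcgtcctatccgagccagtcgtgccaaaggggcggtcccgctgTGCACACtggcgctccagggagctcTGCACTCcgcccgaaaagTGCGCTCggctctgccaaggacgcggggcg
Mt2: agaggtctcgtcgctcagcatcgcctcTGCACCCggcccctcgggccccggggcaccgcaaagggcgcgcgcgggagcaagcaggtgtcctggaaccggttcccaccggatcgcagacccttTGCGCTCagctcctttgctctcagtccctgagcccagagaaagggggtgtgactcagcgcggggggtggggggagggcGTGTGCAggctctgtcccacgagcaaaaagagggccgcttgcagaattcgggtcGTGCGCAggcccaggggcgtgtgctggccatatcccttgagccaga
Mt3: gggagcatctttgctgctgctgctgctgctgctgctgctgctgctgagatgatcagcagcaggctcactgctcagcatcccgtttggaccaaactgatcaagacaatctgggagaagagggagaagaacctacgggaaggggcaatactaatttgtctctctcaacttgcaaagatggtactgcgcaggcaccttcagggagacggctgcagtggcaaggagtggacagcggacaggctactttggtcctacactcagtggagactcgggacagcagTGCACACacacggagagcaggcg
Mt4: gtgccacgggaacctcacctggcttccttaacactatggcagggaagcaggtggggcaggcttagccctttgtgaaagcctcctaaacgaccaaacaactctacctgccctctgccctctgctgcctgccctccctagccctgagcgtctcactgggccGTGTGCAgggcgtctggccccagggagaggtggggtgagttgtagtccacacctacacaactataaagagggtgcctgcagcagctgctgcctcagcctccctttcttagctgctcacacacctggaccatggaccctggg

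Among immediate-early genes, which answer growth factor and cAMP signals within minutes, the core of the cAMP response element was searched as TGACGT on both strands. *Fos* (chr12:85473640-85473939, plus strand) held 1 match, *Atf3* held 1, and *Dusp1* (chr17:26508423-26508722, minus strand) held 3, of which 1 overlaps another because the core pairs with itself across strands. *Jun* and *Junb* held none in this window. The core was present in 7.51% of all windows, and 0.201% held 3 or more. A match is a string of letters and was not tested as a binding site.
Fos: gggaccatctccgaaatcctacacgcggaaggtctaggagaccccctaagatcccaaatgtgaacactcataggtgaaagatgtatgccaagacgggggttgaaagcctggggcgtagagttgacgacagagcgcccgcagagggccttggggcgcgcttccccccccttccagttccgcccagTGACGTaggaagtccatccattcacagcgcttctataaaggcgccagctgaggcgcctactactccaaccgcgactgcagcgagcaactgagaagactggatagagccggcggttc
Dusp1: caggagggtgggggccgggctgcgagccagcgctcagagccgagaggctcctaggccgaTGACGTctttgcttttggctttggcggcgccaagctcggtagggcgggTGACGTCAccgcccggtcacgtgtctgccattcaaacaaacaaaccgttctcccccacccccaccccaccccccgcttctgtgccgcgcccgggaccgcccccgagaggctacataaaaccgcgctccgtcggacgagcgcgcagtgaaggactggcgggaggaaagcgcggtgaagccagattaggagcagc

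Across the 20945 genes, 42 were differentially expressed genes (DEGs) by limma at an adjusted p under 0.01 and a log2 fold change beyond 1 on the log2(TPM + 1) scale, which is 0.201% of the genes tested. Of these, 14 were upregulated (0.0668%) and 28 were downregulated (0.134%). By the kind that the symbol gives, 18 were named genes, 9 were copies of ribosomal protein genes, 1 was another processed copy and 14 were gene models without a name. A model without a name can hold a copy, as *ENSMUSG00000121644* encloses the ribosomal protein copy *Rps26-ps1* on the same strand. All 42 had control and IUHG libraries that did not overlap, against 29.8% of all tested genes (17.8% with IUHG higher and 12% with IUHG lower). At an adjusted p under 0.05 with no fold threshold, a rule added after the data were seen and used for the gene families below, 708 genes (3.38%) rose and 533 (2.54%) fell, together 5.93%. With median-of-ratios scaling of the TPM values that split was 485 against 685, with quantile normalization 545 against 631 and with FPKM in place of TPM 544 against 881. Leaving out control 1, 2 or 3 left 15, 10 or 10 upregulated and 10, 7 or 9 downregulated genes, and leaving out IUHG 1, 2 or 3 left 13, 9 or 10 upregulated and 16, 12 or 10 downregulated. In all 6 of these fits, all 42 stayed past an adjusted p of 0.05, and 16 were still DEGs in every one. Of 22 DEGs matched to a transcript, 20 were still DEGs after GC and length correction, the exceptions being *Cep15* and *Ppp1r32*.

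**Figure D1:**
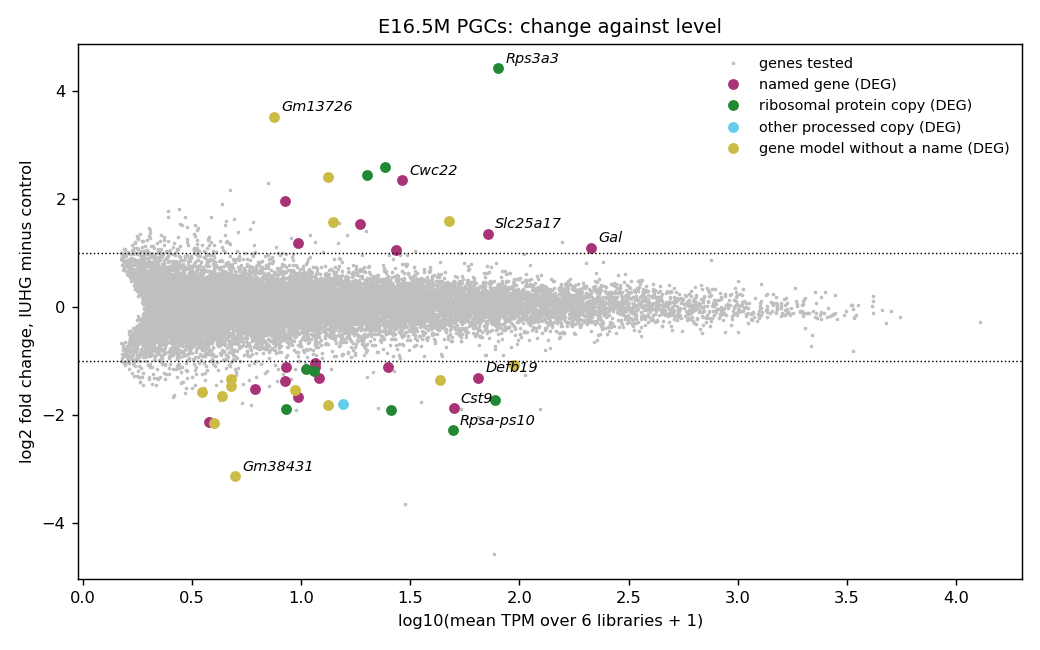
Log2 fold change (IUHG minus control) of each of the 20945 genes against the log10 of its mean TPM plus 1, with the 42 DEGs coloured by kind and dotted lines at a log2 fold change of 1 and -1. The ribosomal protein copies span -2.28 (*Rpsa-ps10*) to 4.41 (*Rps3a3*), and the named genes -2.12 (*Skint2*) to 2.35 (*Cwc22*).

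Among named genes, 7 were upregulated. *Slc25a17*, a carrier of coenzyme A and other cofactors in the peroxisomal membrane (chr15:81203112-81245013 on Mm39), was at 39.1, 40.8 and 37.9 TPM in the control libraries and 99.2, 100.2 and 107 TPM in the IUHG libraries. All 3 IUHG pools lay near 2.56-fold above the controls on the TPM + 1 scale (log2 fold change 1.35 ± 0.07 SE, adjusted p = 7.65e-05), and the spread within each group was small. *Gal*, which encodes the neuropeptide galanin, was the most abundant of the named DEGs, at 128, 134 and 140.3 TPM in the control libraries and 261, 287 and 316 TPM in the IUHG libraries (log2 fold change 1.10 ± 0.08 SE, adjusted p = 0.000426). *Gstt3*, a theta-class glutathione transferase, was at 8.94, 9.15 and 7.39 TPM in the control libraries and 26.4, 29.5 and 23.9 TPM in the IUHG libraries (log2 fold change 1.54 ± 0.13 SE, adjusted p = 0.000822). It was the one glutathione transferase that rose.

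Upregulation of *Cwc22* and *Rbm45*, both RNA-processing genes, involved neighbouring parts of chromosome 2. *Cwc22* (chr2:77711503-77776719), a spliceosome protein that recruits the exon junction complex and lies in a segment whose copy number is known to vary among mice, was at 9.32, 10.4 and 6.33 TPM in the control libraries and 47.2, 48.2 and 46.7 TPM in the IUHG libraries. It rose 5.08-fold on the TPM + 1 scale (log2 fold change 2.35 ± 0.16 SE, adjusted p = 0.000273). The gene model *Gm13726* (chr2:77792613-77793406), just beyond *Cwc22*, was at 0.406, 0.243 and 0 TPM in the control libraries and 13.2, 12.6 and 12.6 TPM in the IUHG libraries (log2 fold change 3.52 ± 0.19 SE, adjusted p = 7.65e-05). *Rbm45* (chr2:76200328-76214112), an RNA-binding protein gene, was at 2.98, 2.75 and 1.76 TPM in the control libraries and 12.8, 12.9 and 11.5 TPM in the IUHG libraries (log2 fold change 1.96 ± 0.17 SE, adjusted p = 0.00119). *Cwc22* and *Gm13726* were DEGs in all 6 fits without 1 library and *Rbm45* in 5. Chromosome 2 held 9 of the 42 DEGs (21.4%) and 7.42% of the genes tested. At an adjusted p under 0.05 with no fold threshold it held 109 of 1241 genes (8.78%), close to its share of the genes tested. The other 6 DEGs on it, *Defb19*, *Lbp*, *Cst9*, *Ttll9*, *Ttll11* and *Rps15a-ps7*, were downregulated. Copy number was not measured here, and the labels do not give the strain of either group, whose part in these differences was not tested.

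The remaining upregulated named genes were *Cep15*, a centrosomal protein gene, and *Obox6*, of the oocyte-specific homeobox family. *Cep15* was at 18.4, 16.6 and 15.4 TPM in the control libraries and 34.0, 34.7 and 38.5 TPM in the IUHG libraries (log2 fold change 1.05 ± 0.10 SE, adjusted p = 0.00225), and at 0.82 (adjusted p = 0.00242) after GC and length correction, under the fold threshold. *Obox6* was low, at 5.25, 4.20 and 5.42 TPM in the control libraries and 14.2, 10.4 and 12.8 TPM in the IUHG libraries (log2 fold change 1.17 ± 0.16 SE, adjusted p = 0.00749). *Cep15* was a DEG in 2 of the 6 fits without 1 library and *Obox6* in none, although both kept an adjusted p under 0.05 in all 6.

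**Figure D2:**
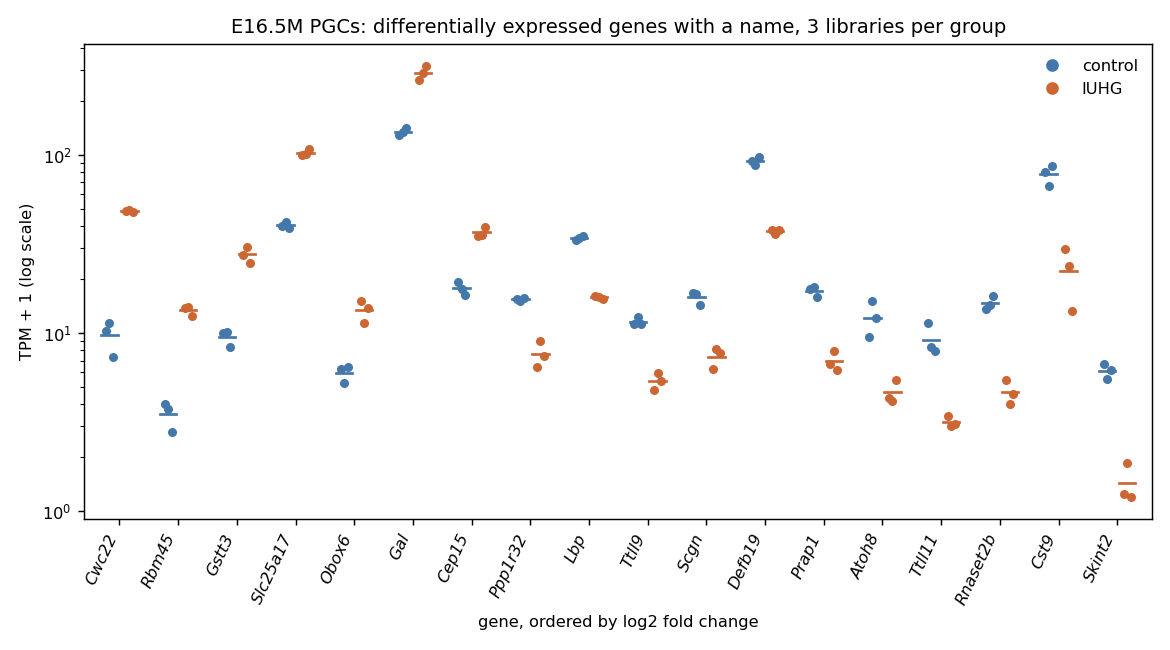
TPM plus 1 on a log axis for the 18 named DEGs, ordered by log2 fold change, with 1 point per library (3 control, 3 IUHG) and a bar at each group mean. In every gene the control and IUHG points are separate, from *Cwc22* (2.35) to *Skint2* (-2.12).

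The downregulated named genes numbered 11, and 2 of them are markers of Sertoli cells. *Defb19* (chr2:152418006-152422232), a beta-defensin made by Sertoli cells, was at 91.1, 86.4 and 96.9 TPM in the control libraries and 36.8, 35.0 and 36.8 TPM in the IUHG libraries, a drop to 0.403 of the control level on the TPM + 1 scale (log2 fold change -1.31 ± 0.08 SE, adjusted p = 0.000128). *Cst9*, which encodes the cystatin-like protein testatin of fetal Sertoli cells, was at 79.2, 65.5 and 85.2 TPM in the control libraries and 28.6, 22.8 and 12.2 TPM in the IUHG libraries (log2 fold change -1.88 ± 0.25 SE, adjusted p = 0.00779). *Lbp*, whose product binds bacterial lipopolysaccharide, was at 32.2, 33.1 and 34.2 TPM in the control libraries and 15.2, 14.9 and 14.5 TPM in the IUHG libraries (log2 fold change -1.11 ± 0.09 SE, adjusted p = 0.000695). In each of the 3, every IUHG library was below every control library, and *Cst9* varied most between the IUHG pools.

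*Prap1*, a gene for a secreted proline-rich protein, was at 16.7, 17.2 and 15.0 TPM in the control libraries and 5.74, 6.96 and 5.21 TPM in the IUHG libraries (log2 fold change -1.32 ± 0.14 SE, adjusted p = 0.00273). *Skint2*, of a family of immunoglobulin-like membrane proteins, was close to undetected under IUHG, at 5.72, 4.49 and 5.16 TPM in the control libraries and 0.245, 0.853 and 0.195 TPM in the IUHG libraries (log2 fold change -2.12 ± 0.23 SE, adjusted p = 0.00361). *Scgn*, which encodes the calcium sensor secretagogin, was at 15.8, 15.6 and 13.3 TPM in the control libraries and 5.26, 7.13 and 6.68 TPM in the IUHG libraries (log2 fold change -1.12 ± 0.14 SE, adjusted p = 0.00637). These 3 fell in all pools, but *Prap1* and *Skint2* were DEGs in only 1 of the 6 fits without 1 library and *Scgn* in none. *Ttll11* and *Ttll9*, of the tubulin tyrosine ligase-like family that adds glutamates to tubulin, both fell, by 1.52 and 1.11 on the log2 scale (adjusted p = 0.0054 and 0.00637). Mean *Ttll11* went from 8.18 ± 1.86 to 2.17 ± 0.218 TPM and mean *Ttll9* from 10.6 ± 0.658 to 4.39 ± 0.594 TPM, with n = 3 per group and, here and for every TPM mean, the error as SD. *Ppp1r32*, for a protein phosphatase 1 regulatory subunit, fell from 14.5 ± 0.271 to 6.61 ± 1.28 TPM (log2 fold change -1.04 ± 0.14 SE, adjusted p = 0.00883), with a corrected value of -0.92 (adjusted p = 0.0082), under the fold threshold. *Atoh8*, for a basic helix-loop-helix transcription factor, fell from 11.2 ± 2.81 to 3.64 ± 0.68 TPM (log2 fold change -1.38 ± 0.20 SE, adjusted p = 0.00956).

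*Rnaset2b* and *Rnaset2a* are near-identical copies of the gene for ribonuclease T2, so reads can be assigned to either and their levels are uncertain. *Rnaset2b* was at 12.7, 13.3 and 15.0 TPM in the control libraries and 4.43, 2.98 and 3.55 TPM in the IUHG libraries (log2 fold change -1.67 ± 0.16 SE, adjusted p = 0.00168). *Rnaset2a*, which was chosen after its values were seen, was at 47.1, 42.1 and 42.7 TPM in the control libraries and 60.8, 65.1 and 60.0 TPM in the IUHG libraries (log2 fold change 0.49 ± 0.08 SE, adjusted p = 0.015). The listed levels of the copies thus moved in opposite directions. Whether the genes themselves did cannot be told where reads can be assigned to either.

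Around the thresholds, *Atoh8* was the DEG with the highest adjusted p, 0.00956, and *Ppp1r32* had the smallest fold change, -1.04. Just outside lay *Pim1*, at 0.99 with an adjusted p of 0.00501, and *Metrn*, at -1.15 with an adjusted p of 0.0106. Both were chosen by their place at the threshold. *Pim1*, a serine/threonine kinase gene downstream of cytokine signals, was at 35.6, 34.2 and 35.5 TPM in the control libraries and 61.4, 67.6 and 85.2 TPM in the IUHG libraries.

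Copies of ribosomal protein genes, mostly processed pseudogenes, made up 9 DEGs, 3 up and 6 down. *Rps3a3* (chr13:108807137-108807931) showed the largest change of all DEGs, at 6.14, 6.67 and 5.52 TPM in the control libraries and 128, 149.6 and 176 TPM in the IUHG libraries, 21.3-fold on the TPM + 1 scale (log2 fold change 4.41 ± 0.13 SE, adjusted p = 1.13e-06). *Rpl15-ps6* was at 5.53, 6.71 and 5.57 TPM in the control libraries and 40.1, 44.8 and 36.8 TPM in the IUHG libraries (log2 fold change 2.58 ± 0.12 SE, adjusted p = 4.74e-05), and *Rpl15-ps2* went the same way (log2 fold change 2.43 ± 0.19 SE, adjusted p = 0.000625). Downregulated copies included *Rps13-ps1*, at 39.6, 39.3 and 40.2 TPM in the control libraries and 11.5, 9.08 and 8.96 TPM in the IUHG libraries (log2 fold change -1.91 ± 0.11 SE, adjusted p = 0.000134), and *Rpsa-ps10*, at 68.2, 88.2 and 85.1 TPM in the control libraries and 10.2, 23.0 and 16.2 TPM in the IUHG libraries (log2 fold change -2.28 ± 0.24 SE, adjusted p = 0.00277). The others were 3 copies of *Rps15a*, with *Rps15a-ps7* at -1.72, *Rps15a-ps8* at -1.88 and *Rps15a-ps5* at -1.14, and *Rpl31-ps15* at -1.18.

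No parent gene tested passed an adjusted p of 0.05. *Rps3a1* was at 2692, 2594 and 2550 TPM in the control libraries and 2482, 2565 and 2690 TPM in the IUHG libraries, a log2 difference of -0.02 (adjusted p = 0.836). *Rpl15*, *Rps13*, *Rps15a* and *Rpsa* were at -0.12 (adjusted p = 0.221), -0.03 (adjusted p = 0.782), -0.08 (adjusted p = 0.37) and 0.22 (adjusted p = 0.111). Since a copy and its parent share most of their sequence, the assignment of reads between them is uncertain. Over all tested genes, 3.38% rose and 2.54% fell at an adjusted p under 0.05. Among all 163 tested ribosomal protein copies, 7 rose and 10 fell at that threshold, with a median of -0.01. Among 204 other processed copies 7 rose and 8 fell, with a median of 0.00. *Hmgb1-ps7*, a copy of the gene for the chromatin protein HMGB1, was the one DEG of that second group, at 25.1, 23.3 and 21.4 TPM in the control libraries and 6.06, 4.88 and 7.07 TPM in the IUHG libraries (log2 fold change -1.80 ± 0.14 SE, adjusted p = 0.000695).

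Unnamed gene models gave 4 upregulated and 10 downregulated genes. *Gm8730* had the lowest p of the decreases, at 58.4, 68.2 and 57.9 TPM in the control libraries and 24.3, 21.9 and 23.9 TPM in the IUHG libraries (log2 fold change -1.36 ± 0.09 SE, adjusted p = 0.00036). *Gm38431* was at 7.02, 11.1 and 5.86 TPM in the control libraries and was listed at 0 in all 3 IUHG libraries. *Gm27164* went from a mean of 5.56 to 0.452 TPM (adjusted p = 0.00273). *Gm19486* rose, at 3.35, 3.54 and 2.82 TPM in the control libraries and 18.4, 21.2 and 24.3 TPM in the IUHG libraries (log2 fold change 2.39 ± 0.14 SE, adjusted p = 0.000134). The function of these models is not given in the files.

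Metallothioneins were lower in IUHG PGCs. This family, like the immediate-early, ERK feedback and glutathione transferase families, was chosen after its values were seen, and its counts are a description. Of 4 genes tested, which lie side by side on chromosome 8, 3 fell and none rose at an adjusted p under 0.05. Over all tested genes 2.54% fell and 3.38% rose, and these shares stand beside the counts of each family and marker list below. *Mt1* (chr8:94905710-94906955 on Mm39) was at 3542, 4624 and 4809 TPM in the control libraries and 2173, 2464 and 2675 TPM in the IUHG libraries (log2 fold change -0.82 ± 0.11 SE, adjusted p = 0.00883). *Mt2* (chr8:94899292-94900196) was at 2456, 2798 and 2856 TPM in the control libraries and 1586, 1579 and 1738 TPM in the IUHG libraries (log2 fold change -0.72 ± 0.07 SE, adjusted p = 0.0015). *Mt3* (chr8:94879235-94880774) was far lower, at 12.2, 15.2 and 13.6 TPM in the control libraries and 6.97, 7.62 and 6.48 TPM in the IUHG libraries (log2 fold change -0.87 ± 0.13 SE, adjusted p = 0.0108). Control and IUHG libraries were separate for all 3. The epithelial member *Mt4* (chr8:94863825-94865659), at 1.29, 2.12 and 0 TPM in the control libraries and 0.82, 1.49 and 3.14 TPM in the IUHG libraries, overlapped between groups and did not pass the test (log2 fold change 0.46 ± 0.45 SE, adjusted p = 0.565). *Mt2* passed in all 6 fits without 1 library and *Mt1* and *Mt3* in 5, with only 1 of the 3 genes passing without control 2. The 3 decreases remained after GC and length correction, at -0.67, -0.52 and -0.60 for *Mt1*, *Mt2* and *Mt3*.

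Immediate-early genes fell in 5 of 12 cases and rose in none, with a list median of -0.54 against 0.04 for all genes. *Fos*, which with JUN forms the transcription factor AP-1, was at 105, 123 and 114 TPM in the control libraries and 73.5, 65.5 and 64.0 TPM in the IUHG libraries (log2 fold change -0.74 ± 0.09 SE, adjusted p = 0.00486). *Egr1*, a zinc finger factor of the growth factor response, was at 37.2, 47.2 and 37.6 TPM in the control libraries and 25.6, 24.3 and 23.1 TPM in the IUHG libraries (log2 fold change -0.71 ± 0.11 SE, adjusted p = 0.0122). *Atf3*, a stress-inducible bZIP factor, was at 7.43, 8.50 and 13.7 TPM in the control libraries and 3.65, 3.79 and 3.83 TPM in the IUHG libraries (log2 fold change -1.15 ± 0.21 SE, adjusted p = 0.0193). All 3 were lower in every IUHG library than in every control library. *Jun* was at 23.4, 36.2 and 23.8 TPM in the control libraries and 16.0, 13.9 and 14.4 TPM in the IUHG libraries (log2 fold change -0.84 ± 0.16 SE, adjusted p = 0.0237), with control 2 above the other pools. *Dusp1*, a MAP kinase phosphatase, was at 89.1, 67.4 and 76.1 TPM in the control libraries and 53.7, 56.3 and 57.7 TPM in the IUHG libraries (log2 fold change -0.46 ± 0.10 SE, adjusted p = 0.037). *Junb* and *Fosb* did not pass the test, at -0.62 (adjusted p = 0.0891) and -0.64 (adjusted p = 0.154). *Fos* passed in all 6 fits without 1 library, *Egr1* in 5, *Atf3* in 4, *Jun* in 2 and *Dusp1* in none. Without control 2, control 3 or IUHG 2 the count was 2, 3 or 1. With GC and length correction *Dusp1* no longer passed (adjusted p = 0.0534), and *Jund* rose to 0.28 (adjusted p = 0.0227).

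*Dusp6*, a phosphatase induced by ERK signalling that switches ERK off, was the one of 8 ERK feedback genes that passed, at 4.08, 5.70 and 4.67 TPM in the control libraries and 1.43, 1.62 and 1.63 TPM in the IUHG libraries (log2 fold change -1.18 ± 0.18 SE, adjusted p = 0.0118). It passed in 4 of the 6 fits, not without control 2 or IUHG 2. *Spry2*, an inhibitor of receptor tyrosine kinase signals on the same list, was higher in every IUHG library but did not pass the test, at 0.75 (adjusted p = 0.0513). *Id1*, a target of BMP signals, *Hspa1a* and *Hspb1*, which encode heat shock proteins, were also chosen after their values were seen. *Id1* was at 22.5, 27.5 and 23.1 TPM in the control libraries and 13.0, 12.7 and 15.1 TPM in the IUHG libraries (log2 fold change -0.79 ± 0.12 SE, adjusted p = 0.0108). *Hspa1a* was at 20.5, 22.2 and 22.4 TPM in the control libraries and 12.6, 12.3 and 10.1 TPM in the IUHG libraries (log2 fold change -0.85 ± 0.12 SE, adjusted p = 0.00805). *Hspb1* fell from 181 ± 20.0 to 121 ± 4.17 TPM (log2 fold change -0.57 ± 0.09 SE, adjusted p = 0.0108). In all 3 genes the groups did not overlap.

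Glutathione transferases, which conjugate glutathione to electrophiles, fell in 5 of 21 cases and rose in 1, *Gstt3*. *Gstm1* was at 159, 173 and 184 TPM in the control libraries and 107, 101 and 94.5 TPM in the IUHG libraries (log2 fold change -0.77 ± 0.08 SE, adjusted p = 0.00265). *Gstm2* was at 105, 87.6 and 97.8 TPM in the control libraries and 65.9, 53.9 and 48.8 TPM in the IUHG libraries (log2 fold change -0.78 ± 0.12 SE, adjusted p = 0.0108). Among the pi class, *Gstp1* was at 121, 152 and 131 TPM in the control libraries and 103, 103 and 98.2 TPM in the IUHG libraries (log2 fold change -0.40 ± 0.09 SE, adjusted p = 0.0352), and *Gstp2* and *Gstp3*, close copies of it, also fell. After GC and length correction the decreases of *Gstm1* and *Gstm2* remained and those of the 3 pi-class genes did not. Without 1 library, whichever it was, 1 to 3 of the 5 decreases passed.

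Besides *Gal*, which rose, 5 genes of secreted neuroendocrine proteins are named here because they fell. They were chosen after their values were seen, with no list of such genes behind them, and say nothing of others of the kind. *Chga*, for the granule protein chromogranin A, was at 21.1, 25.9 and 25.5 TPM in the control libraries and 13.9, 12.6 and 11.2 TPM in the IUHG libraries (log2 fold change -0.89 ± 0.12 SE, adjusted p = 0.00883). *Gast*, for gastrin, was at 35.0, 42.7 and 31.8 TPM in the control libraries and 19.7, 15.3 and 20.4 TPM in the IUHG libraries (log2 fold change -0.94 ± 0.14 SE, adjusted p = 0.0108). *Npy*, for neuropeptide Y, was at 15.2, 21.7 and 19.7 TPM in the control libraries and 8.78, 11.3 and 9.17 TPM in the IUHG libraries (log2 fold change -0.88 ± 0.15 SE, adjusted p = 0.018). Every IUHG library was lower than every control library in these genes. *Cartpt* and *Sct*, for the CART peptide and secretin, fell from 22.4 ± 0.414 to 13.6 ± 1.62 TPM and from 32.9 ± 4.30 to 19.8 ± 2.15 TPM (adjusted p = 0.0141 and 0.018). After GC and length correction *Sct* stood at -0.46 (adjusted p = 0.0629).

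**Figure D3:**
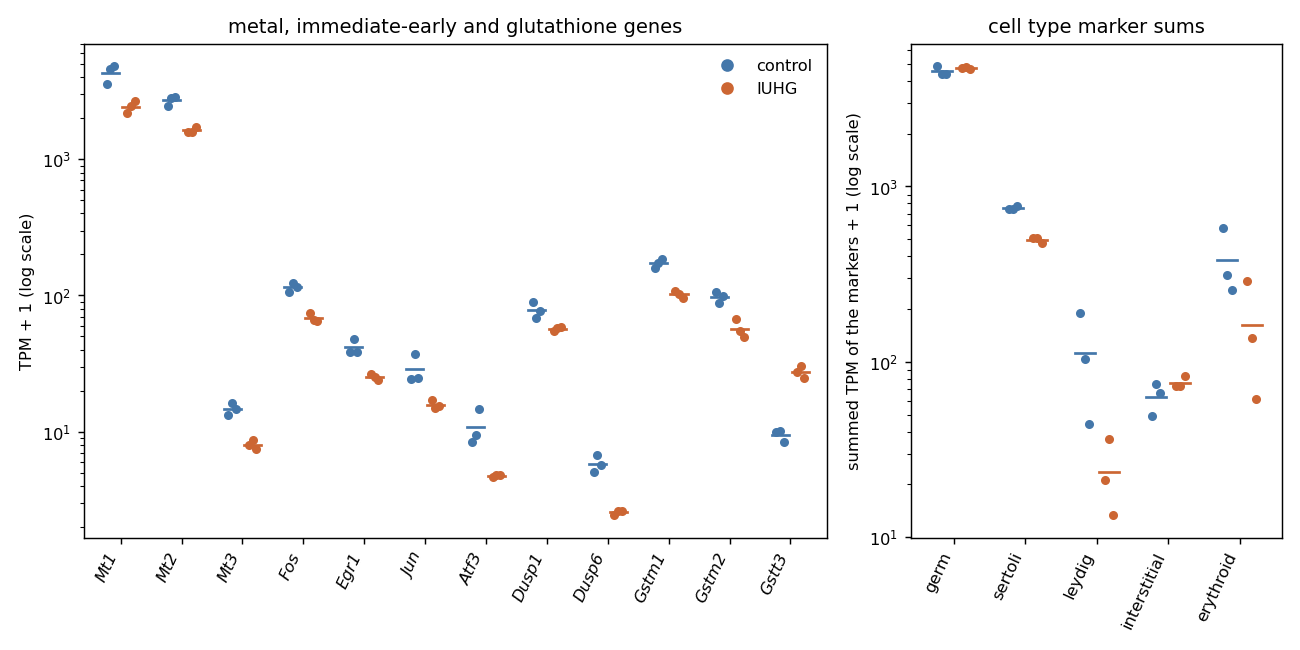
Left, TPM plus 1 on a log axis for 12 metallothionein, immediate-early, ERK feedback and glutathione transferase genes chosen after their values were seen; right, the summed TPM plus 1 of the germ, Sertoli, Leydig, erythroid and interstitial markers, with 1 point per library and a bar at each group mean. Of the 12 genes shown, *Gstt3* is the one that is higher under IUHG, and the Sertoli sum is lower in all 3 IUHG libraries (477 to 505 TPM) than in the controls (741 to 770 TPM).

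Sertoli cell markers were lower in IUHG samples. In bulk libraries, the cells that made an RNA are not identified, and fewer cells of a type and less RNA per cell cannot be told apart. The 26 markers summed to 746, 741 and 770 TPM in the control libraries and to 505, 505 and 477 TPM in the IUHG libraries. The ratio of means was 0.659, and the exact two-sided permutation p was 0.1, the smallest that 3 against 3 libraries can give. Of 24 markers tested, 22 were lower, against 9376 of all 20945 genes tested, and the median was -0.41. Against 2.54% of all genes, 6 markers fell at an adjusted p under 0.05. Besides *Defb19* and *Cst9* these were *Clu*, *Ptgds*, *Inha* and *Aldh1a1*. *Clu*, for the secreted chaperone clusterin, was at 184, 183 and 189 TPM in the control libraries and 144, 129 and 125 TPM in the IUHG libraries (log2 fold change -0.49 ± 0.07 SE, adjusted p = 0.00965). *Ptgds*, for prostaglandin D synthase, was at 87.8, 91.7 and 85.4 TPM in the control libraries and 67.5, 63.6 and 64.7 TPM in the IUHG libraries (log2 fold change -0.43 ± 0.07 SE, adjusted p = 0.0135). *Inha*, for the inhibin alpha subunit, was at 47.8, 31.0 and 28.8 TPM in the control libraries and 19.9, 16.3 and 9.69 TPM in the IUHG libraries (log2 fold change -1.19 ± 0.26 SE, adjusted p = 0.0333). None of the 26 markers was at 0 in all libraries. The defining markers were low in both groups: *Amh* was at 1.84, 2.03 and 1.60 TPM in the control libraries and 0.77, 0.472 and 0.705 TPM in the IUHG libraries, and *Sox9*, the Sertoli cell determinant, at 4.86, 4.86 and 5.75 TPM in the control libraries and 4.31, 3.76 and 2.41 TPM in the IUHG libraries, and neither passed the test (adjusted p = 0.0667 and 0.182). The same 6 passed after GC and length correction, and leaving out 1 library left 2 to 6, with 3 without control 2 and 2 without IUHG 2.

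Leydig cell markers differed more but were uneven. Their sum was 189.7, 102.5 and 43.5 TPM in the control libraries and 20.1, 35.4 and 12.3 TPM in the IUHG libraries, a ratio of 0.202 (exact permutation p = 0.1). *Insl3*, the Leydig cell hormone of testis descent, was at 90.1, 50.6 and 18.7 TPM in the control libraries and 3.18, 10.3 and 0 TPM in the IUHG libraries and was the 1 of 5 tested markers that fell (log2 fold change -3.65 ± 0.81 SE, adjusted p = 0.0357). It passed in 1 of the 6 fits without 1 library. *Cyp17a1*, an enzyme of androgen synthesis, was at 25.6, 12.8 and 4.69 TPM in the control libraries and 1.55, 4.55 and 1.79 TPM in the IUHG libraries (adjusted p = 0.0608). It passed with the GC and length correction (adjusted p = 0.0439). Erythroid markers summed to 579, 311 and 256 TPM against 288, 135 and 60.2 TPM, which overlapped (exact permutation p = 0.2). Control 1 had the highest Leydig and erythroid sums. Macrophage, endothelial, interstitial and mesonephric sums had ratios of 0.772, 0.877, 1.20 and 1.09 (exact permutation p = 0.1, 0.1, 0.3 and 0.3). The macrophage and endothelial sums were lower in every IUHG library than in every control library, but a single gene made up most of each. In the control libraries *Fcer1g* gave 158, 169 and 178 TPM of macrophage sums of 201, 217 and 222 TPM. *Egfl7* gave 248, 249 and 234 TPM of endothelial sums of 281, 283 and 263 TPM there, and its change did not pass the test (adjusted p = 0.107). *Fcer1g*, on the leukocyte list, fell from 168 ± 9.93 to 123 ± 4.07 TPM (log2 fold change -0.45 ± 0.07 SE, adjusted p = 0.0107), while the macrophage marker *Cd68* did not pass the test (log2 fold change -0.15 ± 0.14 SE, adjusted p = 0.561). The part of these cells in the other results was not tested.

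Germ cell genes were close in level, with small increases in some families. Each family from here on stands beside the same 3.38% of all genes rising and 2.54% falling. Of the 8 germ cell markers, *Dazl*, an RNA-binding protein that licenses gametogenesis, rose, at 459, 434 and 432 TPM in the control libraries and 512, 534 and 549 TPM in the IUHG libraries (log2 fold change 0.27 ± 0.05 SE, adjusted p = 0.026). *Ddx4*, the germ cell RNA helicase, was at 302, 289 and 273 TPM in the control libraries and 355, 339 and 324 TPM in the IUHG libraries and did not pass (adjusted p = 0.0571). After GC and length correction *Dazl* stood at -0.00402 on the log2 scale. *Pou5f1*, which drives the EGFP used in the sort, overlapped between groups, at 194, 181 and 163 TPM in the control libraries and 144, 152 and 171 TPM in the IUHG libraries.

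Male fate and NODAL pathway genes rose in 2 of 16 cases and fell in none, with a median of -0.02. The 2 were *Smad2* and *Dazl*, the latter already counted among the germ cell markers. With the GC and length correction 1 of the list rose, and without control 2 or IUHG 2 none did. *Smad2*, a transducer of NODAL and activin signals, was at 19.4, 16.7 and 17.8 TPM in the control libraries and 27.4, 30.5 and 29.6 TPM in the IUHG libraries (log2 fold change 0.67 ± 0.10 SE, adjusted p = 0.0106). It stayed past 0.05 with the GC and length correction and in 4 of the 6 fits without 1 library. *Acvr2a*, an activin receptor gene, was higher in each IUHG library but did not pass the test (log2 fold change 0.52 ± 0.15 SE, adjusted p = 0.0772). *Nanos2*, the determinant of male germ cell fate, was already low at this stage, at 4.33, 7.09 and 4.65 TPM in the control libraries and 2.04, 3.91 and 3.36 TPM in the IUHG libraries (log2 fold change -0.63 ± 0.24 SE, adjusted p = 0.144). *Cbx2*, a Polycomb gene of male sex determination, was at 0.08 (adjusted p = 0.76). Neither passed the test.

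Among 27 spermatogonial genes 2 rose and none fell. *Nxf2*, an X-linked RNA export gene, was at 948, 808 and 816 TPM in the control libraries and 1122, 1099 and 1047 TPM in the IUHG libraries (log2 fold change 0.35 ± 0.07 SE, adjusted p = 0.0236). *Sall4*, a zinc finger gene of germline stem cells that is also on the pluripotency list, was at 59.6, 61.1 and 65.2 TPM in the control libraries and 75.3, 92.3 and 90.2 TPM in the IUHG libraries (log2 fold change 0.46 ± 0.09 SE, adjusted p = 0.026). *Rhox13* did not pass (log2 fold change -0.29 ± 0.09 SE, adjusted p = 0.105). *Sall4* was the 1 of 25 pluripotency genes that passed, with *Zfp42* at 0.44 (adjusted p = 0.0694) and *Klf2* at -0.78 (adjusted p = 0.0728) not past the test. *Nxf2* and *Sall4* passed in 2 and 1 of the 6 fits without 1 library, and *Nxf2* did not pass with the GC and length correction.

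Meiosis genes rose in 4 of 39 cases and fell in none, and their median was 0.19. *Smc1b*, the meiotic cohesin subunit, was at 54.8, 52.0 and 50.9 TPM in the control libraries and 67.1, 73.1 and 74.7 TPM in the IUHG libraries (log2 fold change 0.44 ± 0.08 SE, adjusted p = 0.0174). *Tex11*, an X-linked crossover gene, rose from 17.9 ± 1.27 to 25.6 ± 1.76 TPM (log2 fold change 0.49 ± 0.10 SE, adjusted p = 0.0294). *Hormad1*, of the chromosome axis, and *Syce1*, of the synaptonemal complex, rose from 210.0 ± 18.6 to 261 ± 6.76 TPM and from 113 ± 3.55 to 139.5 ± 10.9 TPM (adjusted p = 0.0375 and 0.0486). With GC and length correction none of the 4 passed and the median was 0.10, and without control 2, control 3 or IUHG 2 none passed, against 1 without IUHG 1 and 2 without IUHG 3. The differences were thus of 1.23-fold to 1.41-fold and depended on that setting.

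piRNA pathway genes, which silence transposons and guide methylation in prospermatogonia, rose in 3 of 28 cases, with a median of 0.11. *Morc1*, an ATPase required for transposon methylation in male germ cells, was at 178, 189 and 186 TPM in the control libraries and 281, 264 and 233 TPM in the IUHG libraries (log2 fold change 0.49 ± 0.08 SE, adjusted p = 0.0122). *Tdrd5* and *Asz1*, of the germ granules, rose from 90.4 ± 3.12 to 115 ± 7.04 TPM and from 307 ± 30.0 to 389.5 ± 19.8 TPM (adjusted p = 0.0304 and 0.0358). *Morc1* passed in 4 of the 6 fits without 1 library and after the GC and length correction, where it was 0.34. *Asz1* did not pass with the correction, at 0.16 (adjusted p = 0.154), and *Tdrd5* could not be matched to a transcript. Without control 2 or IUHG 2 none of the 3 passed, and without control 3 1 did.

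No gene of the 12 that write, erase or maintain DNA methylation passed the test in either direction, and the median was 0.02. At an unadjusted p under 0.05, 2 were higher and 1 lower, against 2919 higher and 2084 lower of all 20945 genes tested. *Dnmt3a*, the main de novo methyltransferase of prospermatogonia, was at 248, 275 and 373 TPM in the control libraries and 484, 423 and 343 TPM in the IUHG libraries, and the groups overlapped (log2 fold change 0.49 ± 0.16 SE, adjusted p = 0.105). *Dnmt3b* was at 13.3, 12.1 and 13.6 TPM in the control libraries and 16.6, 16.0 and 17.3 TPM in the IUHG libraries (log2 fold change 0.33 ± 0.10 SE, adjusted p = 0.0925). *Tet3*, a methylcytosine oxidase gene, was lower in every IUHG library, at 10.3, 9.68 and 8.76 TPM in the control libraries and 6.95, 7.39 and 8.24 TPM in the IUHG libraries (log2 fold change -0.31 ± 0.13 SE, adjusted p = 0.184). Missing the test does not show that these levels were equal.

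Imprinted genes, which are expressed from 1 parental allele according to DNA methylation, fell in 3 of 44 cases and rose in 1. *Cdkn1c*, an inhibitor of the cell cycle, was at 314, 313 and 338 TPM in the control libraries and 248, 248 and 248 TPM in the IUHG libraries (log2 fold change -0.37 ± 0.05 SE, adjusted p = 0.0106). *Dio3*, which inactivates thyroid hormone, was at 8.13, 6.30 and 6.45 TPM in the control libraries and 3.42, 3.72 and 3.82 TPM in the IUHG libraries (log2 fold change -0.77 ± 0.15 SE, adjusted p = 0.0266). *Nnat*, for neuronatin, fell from 96.0 ± 9.92 to 73.8 ± 0.738 TPM (log2 fold change -0.37 ± 0.08 SE, adjusted p = 0.037). *Slc38a4*, an amino acid transporter gene, rose, at 40.9, 41.2 and 37.3 TPM in the control libraries and 65.2, 58.3 and 56.3 TPM in the IUHG libraries (log2 fold change 0.58 ± 0.09 SE, adjusted p = 0.0108). *Cdkn1c* and *Slc38a4* passed in 5 of the 6 fits without 1 library, *Nnat* in 1 and *Dio3* in none. *Nnat* did not pass after GC and length correction, at -0.23 (adjusted p = 0.113).

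*H19* was at 7.10, 9.35 and 6.88 TPM in the control libraries and 7.78, 9.37 and 12.6 TPM in the IUHG libraries and did not pass (log2 fold change 0.30 ± 0.19 SE, adjusted p = 0.361). *Zdbf2* overlapped between groups, at means of 3.77 ± 0.566 and 3.70 ± 0.822 TPM (log2 fold change -0.03 ± 0.19 SE, adjusted p = 0.945). *Meg3* and *Dlk1*, of 1 imprinted cluster, were at -0.13 (adjusted p = 0.684) and -0.03 (adjusted p = 0.915). None of these 4 genes, which the study discusses for male PGCs, was past the test.

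Cell cycle genes held 2 decreases in 41 genes. Besides *Cdkn1c*, *Ccnd3*, the cyclin D3 gene, was at 116, 119 and 113 TPM in the control libraries and 90.5, 82.2 and 73.6 TPM in the IUHG libraries (log2 fold change -0.50 ± 0.08 SE, adjusted p = 0.0157). *Aurkb*, a mitotic kinase gene, was lower in each IUHG library but did not pass (log2 fold change -0.49 ± 0.14 SE, adjusted p = 0.0724). Among 31 histone genes *H2ac1* fell from 11.6 ± 1.25 to 5.80 ± 1.68 TPM (log2 fold change -0.91 ± 0.19 SE, adjusted p = 0.0286), with a corrected value of -0.63 that did not pass (adjusted p = 0.0673). No Rhox homeobox gene of 28 passed, with a median of -0.14, and none of 16 MHC genes did, with *H2-K1* at 0.44 (adjusted p = 0.083). With the GC and length correction *Rhox8* and *Rhox9* passed, at -0.86 (adjusted p = 0.0365) and -0.73 (adjusted p = 0.0415). *H2-K1* also passed with it, at 0.55 (adjusted p = 0.0357).

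**Figure D4:**
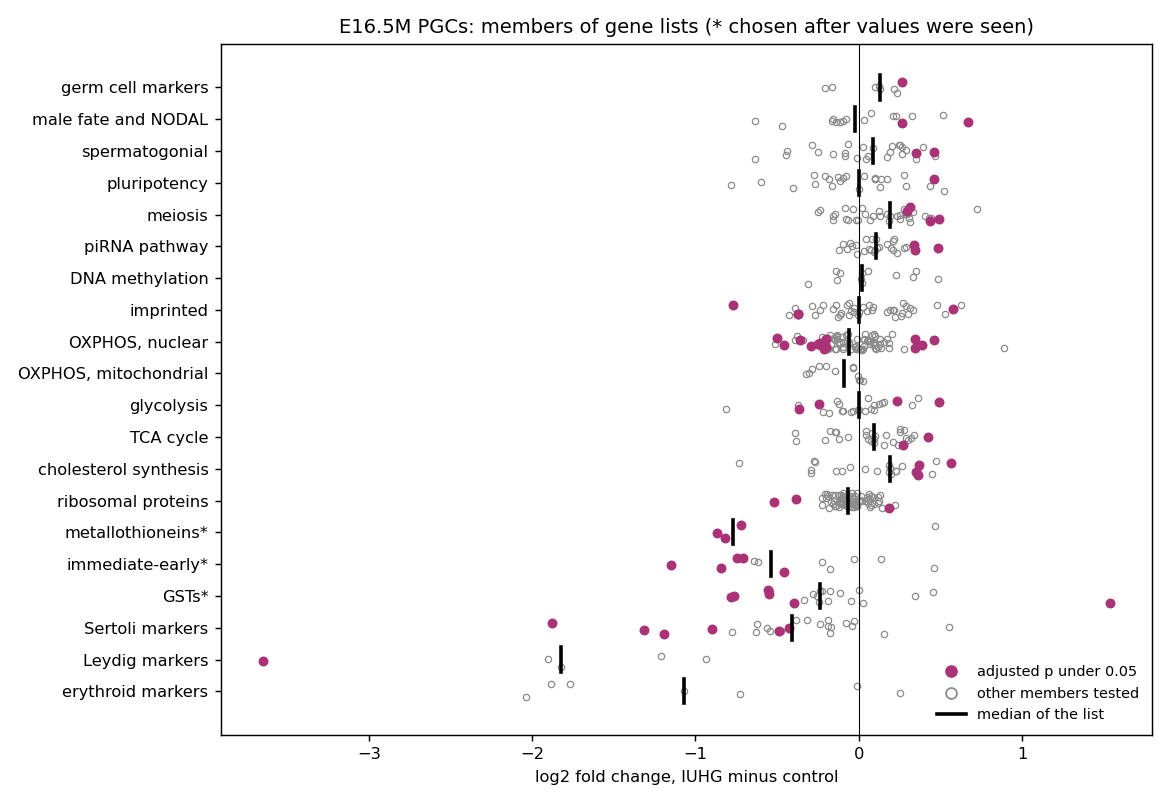
Log2 fold change (IUHG minus control) of every tested member of 20 gene lists, 1 point per gene, filled where the adjusted p was under 0.05, with a black bar at each median; lists marked with an asterisk were chosen after their values were seen. Leydig and erythroid medians lie furthest to the left (-1.82 and -1.07). Metallothionein, immediate-early, Sertoli and glutathione transferase medians follow (-0.77, -0.54, -0.41 and -0.24), and the germline and metabolic medians lie between -0.09 and 0.19.

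Genes of energy metabolism moved little and in both directions. Nuclear genes of oxidative phosphorylation rose in 4 of 87 cases and fell in 9. *Ndufb11*, a complex I subunit gene, was at 643, 641 and 638 TPM in the control libraries and 524, 468 and 415 TPM in the IUHG libraries (log2 fold change -0.45 ± 0.08 SE, adjusted p = 0.0169). *Ndufs7*, another, fell from 1222 ± 26.3 to 998 ± 47.6 TPM (log2 fold change -0.29 ± 0.05 SE, adjusted p = 0.0168). *Ndufs4* and *Atp5pb*, of complex I and ATP synthase, rose from 133 ± 8.50 to 174 ± 4.22 TPM and from 71.8 ± 3.92 to 99.1 ± 3.43 TPM (adjusted p = 0.0169 and 0.012). With GC and length correction 6 rose and 2 fell, and *Ndufs7* stood at -0.10 (adjusted p = 0.32). Without control 2 or IUHG 2 none passed, and leaving out another library gave 2 to 5 increases and 1 to 10 decreases. None of the 12 genes of the mitochondrial genome tested passed, and *mt-Cytb* was at -0.31 (adjusted p = 0.0762). With the correction 4 of the 12 fell, *mt-Cytb*, *mt-Co3*, *mt-Atp6* and *mt-Nd1*, by 0.48, 0.47, 0.41 and 0.38 on the log2 scale.

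Of 26 glycolysis and related sugar genes 2 rose and 2 fell. *Txnip*, which restrains glucose uptake and whose transcription follows intracellular glucose, was at 95.2, 83.1 and 85.9 TPM in the control libraries and 122, 124 and 127 TPM in the IUHG libraries (log2 fold change 0.49 ± 0.07 SE, adjusted p = 0.0102). It passed in 4 of the 6 fits without 1 library and after the correction. *Eno1* rose from 1329 ± 25.9 to 1564 ± 75.8 TPM (log2 fold change 0.23 ± 0.05 SE, adjusted p = 0.031), while *Aldoa* fell from 431 ± 0.841 to 364 ± 2.22 TPM (log2 fold change -0.24 ± 0.05 SE, adjusted p = 0.0227), and *Tkt*, of the pentose phosphate pathway, from 213 ± 12.8 to 165 ± 12.9 TPM (log2 fold change -0.37 ± 0.08 SE, adjusted p = 0.0294). In the citric acid cycle *Mdh2* and *Dld* rose among 29 genes, at 0.27 (adjusted p = 0.018) and 0.43 (adjusted p = 0.0222). After GC and length correction *Aldoa* stood at -0.12 (adjusted p = 0.163) and *Dld* at 0.22 (adjusted p = 0.152), and neither passed. *Acly*, which turns citrate into cytosolic acetyl-CoA and was chosen after its values were seen, was at 145, 151 and 140.5 TPM in the control libraries and 270.3, 257 and 237 TPM in the IUHG libraries (log2 fold change 0.80 ± 0.07 SE, adjusted p = 0.000898). It passed in all 6 fits without 1 library and was 0.80 after the correction.

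Cholesterol synthesis genes rose in 4 of 24 cases, with a median of 0.19. *Sc5d*, *Msmo1* and *Hmgcs1*, of late and early steps, rose from 9.51 ± 0.108 to 14.6 ± 1.54 TPM, from 67.7 ± 4.23 to 86.5 ± 2.07 TPM and from 33.3 ± 0.886 to 43.1 ± 1.67 TPM, with adjusted p-values of 0.0299, 0.0294 and 0.0345. The fourth was *Sqle*. After GC and length correction none of *Sc5d*, *Msmo1* and *Sqle* passed, *Hmgcs1* could not be matched to a transcript, and at most 1 passed without any 1 library. *Rheb*, an activator of mTORC1, was the 1 of 22 insulin and mTOR pathway genes that passed, at 39.4, 31.1 and 34.0 TPM in the control libraries and 47.2, 48.5 and 50.5 TPM in the IUHG libraries (log2 fold change 0.48 ± 0.10 SE, adjusted p = 0.0294).

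The antioxidant, endoplasmic reticulum stress and p53 lists each held at most 2 genes that passed. Among 24 antioxidant genes *Ftl1*, the ferritin light chain gene, fell, at 14003, 14066 and 13999 TPM in the control libraries and 11832, 11597 and 11136 TPM in the IUHG libraries (log2 fold change -0.28 ± 0.04 SE, adjusted p = 0.00651). It passed in all 6 fits without 1 library but not after the GC and length correction, where it was -0.11 (adjusted p = 0.183). *Gclc*, of glutathione synthesis, did not pass (log2 fold change 0.36 ± 0.09 SE, adjusted p = 0.0583). None of 19 endoplasmic reticulum stress genes passed, with *Dnajb9* nearest (log2 fold change 0.39 ± 0.10 SE, adjusted p = 0.0543). An unadjusted p under 0.05 was found for 3 of them and for 5003 of all 20945 genes tested. Of 19 p53 and apoptosis genes *Sesn1* and *Ccng1*, both p53 targets, rose, at 0.48 (adjusted p = 0.0226) and 0.42 (adjusted p = 0.0272), and neither passed after the correction. *Bax* did not pass (log2 fold change -0.22 ± 0.06 SE, adjusted p = 0.052).

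Among the 79 ribosomal protein genes themselves 1 rose and 2 fell. Most were slightly lower, 58 of 79 against 9376 of all 20945 genes tested, with a median of -0.07. At an unadjusted p under 0.05, 19 were lower and 3 higher, against 2084 lower and 2919 higher of all genes tested. *Rps18* was at 2734, 2419 and 2531 TPM in the control libraries and 1898, 1823 and 1634 TPM in the IUHG libraries (log2 fold change -0.52 ± 0.07 SE, adjusted p = 0.00639) and passed in all 6 fits, and *Rpl26* and *Rpl5* were at -0.39 (adjusted p = 0.0159) and 0.19 (adjusted p = 0.0481). After GC and length correction *Rpl26* stood at -0.20 (adjusted p = 0.103) and *Rpl5* at 0.02 (adjusted p = 0.875), and neither passed.

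Over these families, 91 genes that were on a list and were not DEGs passed an adjusted p of 0.05. Leaving out 1 library left 62, 13 or 29 of them without control 1, 2 or 3 and 55, 12 or 46 without IUHG 1, 2 or 3. The direction was kept for all 91 in each of these fits. Of 70 that could be matched to a transcript, 38 stayed past 0.05 after the GC and length correction.

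The female PGCs of the same stage gave 138 DEGs (0.736% of 18753 genes), from libraries separate from the male ones, and 5.64% passed an adjusted p of 0.05 with no fold threshold. Of the 42 male DEGs, 10 (23.8%) were also DEGs in E16.5F PGCs, which is 7.25% of the female ones, and 9 had the same direction. *Cwc22* rose in both sexes, in E16.5F from 20.4 ± 3.29 to 149 ± 19.6 TPM (SD, n = 3; log2 fold change 2.81, adjusted p = 0.000109). *Rbm45* rose in E16.5F by 3.32 on the log2 scale (adjusted p = 0.00102). *Rps3a3* rose in both, at 3.16 in E16.5F, and *Rps13-ps1*, *Rps15a-ps7*, *Rpsa-ps10* and *Hmgb1-ps7* fell in both. The opposite case was *Gm27164*, at 2.95 in E16.5F.

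The sex by IUHG interaction was past an adjusted p of 0.01 and 1 on the log2 scale for 212 of 24051 genes (0.881%) and for 10 of the 42 male DEGs. Of these 10, *Skint2* and *Gm13029* were under 1 TPM on average in both E16.5F groups and were not tested there, so that their difference largely restates the male change, which leaves 8. The male values that chose these 42 also enter the interaction, so that share is a description. *Gal* differed by 2.76 ± 0.22 (SE, adjusted p = 7.17e-05), since it fell in E16.5F PGCs, where it was at 2.56 ± 0.335 TPM in controls and 0.133 ± 0.231 TPM under IUHG. *Gstt3* differed by 3.37 ± 0.49 (adjusted p = 0.00347), with an E16.5F change of -1.83 (adjusted p = 0.0632). *Rnaset2b* differed by -2.02 ± 0.24 (adjusted p = 0.00104). *Slc25a17* rose by 1.35 in males and was at 0.39 in females (adjusted p = 0.0534), a difference of 0.96 that lies just under the fold threshold (adjusted p = 0.00141). *Defb19* was at 2.51 TPM or less on average in either female group.

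The male PGCs of E13.5 gave 567 DEGs (3.92% of 14473 genes), and 33.3% of the genes passed an adjusted p of 0.05 with no fold threshold. They shared 9 DEGs with E16.5M, which is 21.4% of the 42 and 1.59% of the 567, of which 3 had the same direction. The stage by IUHG interaction was past the same thresholds for 701 of 21712 genes (3.23%) and for 31 of the 42 DEGs, again a description. Of these 31, 6 were under 1 TPM on average in both E13.5M groups and were not tested there, which leaves 25. *Cwc22* fell in E13.5M by 0.36 on the log2 scale (adjusted p = 0.00463), and the difference between stages was 2.70 ± 0.18 (adjusted p = 1.58e-06). *Rps13-ps1* went from 6.40 ± 1.26 to 122 ± 5.58 TPM in E13.5M, opposite to E16.5M, a difference of -5.98 ± 0.17 (adjusted p = 4.25e-10). *Defb19* fell at both stages, in E13.5M by 0.88 (adjusted p = 0.00146), and its interaction did not pass (adjusted p = 0.128).

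Levels of some genes also changed with stage in the controls. Mean *Mt2* was 31.3 ± 6.10 TPM in E13.5M and 2703 ± 216 TPM in E16.5M controls, and 25.2 ± 5.68 TPM in E16.5F controls. *Mt1* also fell in E16.5F, by 1.14 on the log2 scale (adjusted p = 0.0474), and its sex interaction did not pass (adjusted p = 0.592). *Mt2* rose in E13.5M by 0.53 (adjusted p = 0.00724), and the difference between stages was -1.26 ± 0.15 (adjusted p = 0.000146). *Gal* was at 18.6 ± 2.53 TPM in E13.5M and 134 ± 6.32 TPM in E16.5M controls, and under IUHG it fell at E13.5M and rose at E16.5M, a difference of 1.82 ± 0.14 (adjusted p = 5.78e-06).

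*Fos* fell at both stages in males, by 1.02 at E13.5M (adjusted p = 4.28e-06), with an interaction that did not pass (adjusted p = 0.103). *Egr1* fell by 2.52 at E13.5M (adjusted p = 1.89e-07), more than at E16.5M, with a difference of 1.81 ± 0.15 (adjusted p = 6.5e-06). *Acly* was at -0.35 in E13.5M (adjusted p = 0.00774) and differed by 1.15 ± 0.10 between stages (adjusted p = 1.48e-05). *Nanos2* fell by 2.63 in E13.5M (adjusted p = 6.26e-06), against -0.63 at E16.5M, a difference of 2.00 ± 0.31 (adjusted p = 0.000968). *Morc1* fell in E13.5M by 1.22 (adjusted p = 6.35e-05) and rose in E16.5M, a difference of 1.70 ± 0.14 (adjusted p = 9.16e-06). *Id1* rose in E13.5M by 1.69 (adjusted p = 2.14e-07) and fell in E16.5M, a difference of -2.48 ± 0.13 (adjusted p = 1.29e-07).

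**Figure D5:**
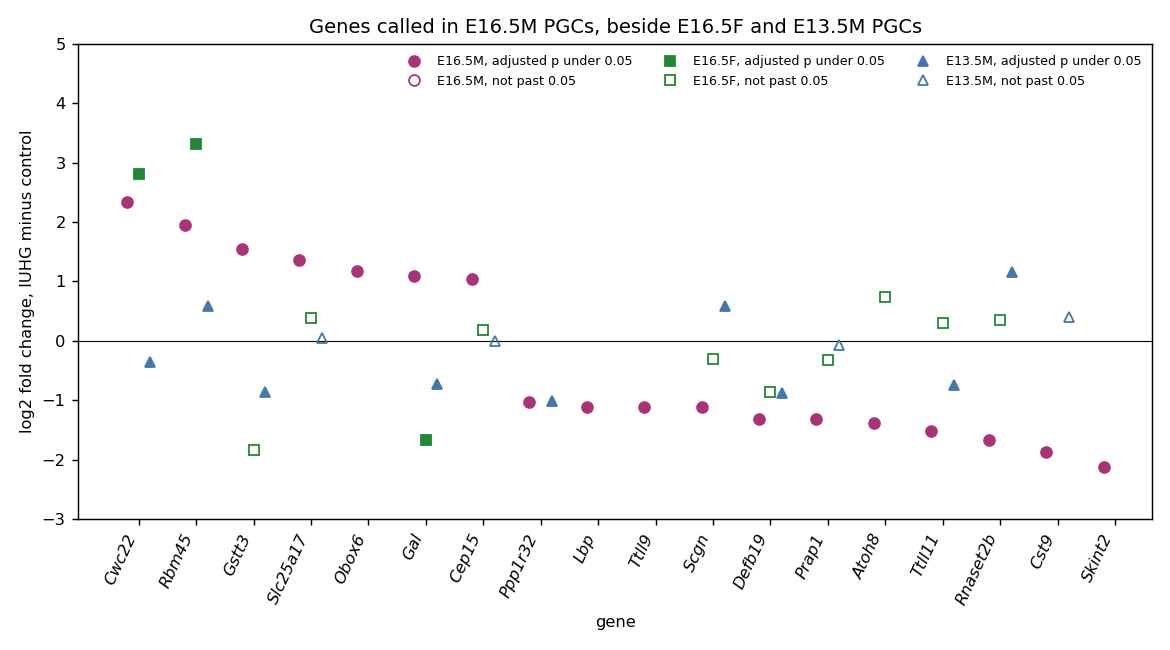
Log2 fold change (IUHG minus control) of the 18 named E16.5M DEGs in E16.5M, E16.5F and E13.5M PGCs, filled where the adjusted p was under 0.05; a gene not tested in a comparison has no symbol there. *Cwc22* and *Rbm45* lie above 0 in both E16.5 comparisons, while *Gal* lies above 0 in E16.5M alone.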

How the data were processed

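PGC libraries were made by full-length cDNA amplification. STAR alignment to Mm39 and a DESeq2 test of counts were run by the authors, and those counts were not used here. The deposited PGC tables give TPM, FPKM and coverage per gene in the StringTie layout; the version and annotation are not given in the sources used here. The authors' TPM values were summed per gene ID; the deposited FPKM served as an alternative and the deposited coverage gave the aligned gigabases. Per-gene counting error is unknown from TPM.

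Genes with a mean of at least 1 TPM in either group were tested on log2(TPM + 1), with limma 3.58.1 in R 4.3.3 (lmFit, eBayes with trend, two-sided, Benjamini-Hochberg over all genes tested), in place of the count test of the study. Fold changes are on that scale, which understates low genes. Interactions used the 4 groups concerned. The test was checked on simulated data. GC content and length came from transcripts of an older annotation, matched by gene ID without its version.

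The members and lists were chosen with earlier results of these data known. Values are given for the 10 up and 10 down DEGs of lowest p, DEGs on lists, genes the study considers in male PGCs, the 3 members of lowest p per list and markers; any other gene is named as a choice made with its values in view. Promoters came from RefSeq on GRCm38.p6. Alternatives covered units, pseudocount, filters, scaling, samples, replicate block, thresholds and left-out libraries. The result of 1 gene list is not reported here.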

Additional observations from a re-analysis of the deposited data

Results flagged for a closer look

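For 10 of the 42 DEGs the IUHG change in E16.5M PGCs differed from that in E16.5F PGCs by limma's interaction term, at an adjusted p under 0.01 and beyond 1 on the log2 scale. The differences, male minus female, were 3.37 for *Gstt3*, 2.76 for *Gal*, 2.63 for *Rpl15-ps6*, 2.41 for *Gm19486* and 1.81 for *Gm20305*. They were -2.02 for *Rnaset2b*, -1.92 for *Gm8730* and -5.11 for *Gm27164*. The values of -2.12 for *Skint2* and -1.48 for *Gm13029* largely restate the E16.5M change, since neither gene reached a mean of 1 TPM in E16.5F PGCs, and no difference between the sexes is read from them.

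For 31 of the 42 the change differed between E16.5M and E13.5M PGCs by the same term. Among named genes the differences, E16.5M minus E13.5M, were 2.70 for *Cwc22*, 2.40 for *Gstt3*, 1.82 for *Gal*, 1.37 for *Rbm45*, 1.31 for *Slc25a17* and 1.04 for *Cep15*. They were -1.24 for *Prap1*, -1.70 for *Scgn*, -2.27 for *Cst9* and -2.83 for *Rnaset2b*.

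Processed copies gave 4.28 for *Rps3a3*, 2.67 for *Rpl15-ps6*, 2.38 for *Rpl15-ps2*, -5.98 for *Rps13-ps1*, -4.36 for *Rps15a-ps7*, -4.52 for *Rps15a-ps8*, -1.99 for *Rps15a-ps5*, -2.44 for *Rpsa-ps10* and -4.13 for *Hmgb1-ps7*. Unnamed models gave 1.68 for *ENSMUSG00000121644*, -1.58 for *Gm20305*, -2.81 for *Gm38431*, -1.64 for *Gm19486*, -3.74 for *Gm57147* and -1.71 for *Gm56727*. The remaining 6 genes did not reach a mean of 1 TPM in E13.5M PGCs, so their values largely restate the E16.5M change and no difference between stages is read from them: 3.48 for *Gm13726*, -1.07 for *Lbp*, -2.12 for *Skint2*, -1.77 for *Gm6166*, -1.88 for *Gm13029* and -2.16 for *Gm27164*. These genes were selected on the E16.5M values that enter both terms, and the cause of the differences was not tested.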

How the results depend on the processing

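The 14 upregulated and 28 downregulated genes became 5 and 4 with no filter on low values, 73 and 83 with all 10 PGC groups in one fit, 108 and 126 at an unadjusted p under 0.01 with the same fold, 74 and 90 at an adjusted p under 0.05 with the same fold, 62 and 71 at an adjusted p under 0.01 with no fold threshold, and 708 and 533 at an adjusted p under 0.05 with no fold threshold. Leaving out 1 library gave 9 to 15 and 7 to 16. The same-numbered libraries did not deviate together, with correlations of -0.00449, -0.00789 and -0.0292, and the replicate block gave 11 upregulated and 9 downregulated genes. The direction of all tested DEGs was kept under every alternative.

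The sex interaction, at 212 genes, was 136 with no filter, 794 with all groups in one fit, 19 with the replicate block, 1263 at an unadjusted p under 0.01, 705 at an adjusted p under 0.05, and 72 to 311 without 1 library. The stage interaction, at 701, was 316 with all groups in one fit, 1800 with no fold threshold, and 599 to 754 without 1 library. DEGs on the lists that hold neither cell type markers nor families added later, which were 10 processed copies, became 3 with no filter, 17 with all groups in one fit and 6 to 8 without 1 library. The GC and length correction gave 5, but it tested only copies matched to a transcript. Of the 10, *Rps3a3*, *Rpl15-ps6*, *Rps13-ps1* and *Rpsa-ps10* were matched, and all of these stayed DEGs. *Rps26-ps1* joined them with the correction, at 2.43 (adjusted p = 0.00363). The correction moved *Dazl* from 0.27 to -0.00402. Fewer libraries leave less power, and fewer copies were tested with the correction. The cause of the other shifts was not tested.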
